A study of Mus musculus with 4 samples.

Results

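The 9 genes described here belong to the Bcl2 family, whose proteins decide at the outer mitochondrial membrane whether a cell lives or dies. They were taken by their symbols from the gene list of the data, which names 31053 genes in all, and their level was read in each library for each class of brain cell. The survival members number 5 (Bcl2, Bcl2l1, Mcl1, Bcl2a1b and Bcl2a1d) and the death members 4 (Bcl2l11, Bax, Bbc3 and Pmaip1). Brain vascular-associated cells were isolated from male WT C57BL/6 mice with CD31 microbeads after mechanical and collagenase II dissociation, and sequenced on the 10x Genomics droplet platform (3′ chemistry v3.1). In chronic social defeat (CSD), a mouse lived for 14 days beside an aggressive CD-1 mouse behind a perforated partition, which was lifted for 5 min a day. Home cage (HC) controls also lived for 14 days beside a CD-1 mouse, with the partition in place throughout. There were 2 CSD and 2 HC libraries, each from the pooled cells of 4 mice aged 12 to 14 weeks, and no transgene or drug was used in either group.

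Survival proteins such as BCL2, BCL-XL (the product of Bcl2l1), MCL1 and A1 (the product of the Bcl2a1 genes) hold the outer mitochondrial membrane intact by binding their death-promoting relatives. BAX opens pores in that membrane and releases cytochrome c, which starts the caspase cascade. BIM (Bcl2l11), PUMA (Bbc3) and NOXA (Pmaip1) are BH3-only proteins, small sensors that neutralise the survival proteins, and NOXA binds mainly MCL1 and A1. PUMA and NOXA are textbook targets of p53. MCL1 is a short-lived protein that cells must make continually.

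After filtering (at least 500 unique molecular identifiers (UMIs), at least 250 genes and at most 25% mitochondrial UMIs), 14415 cells were kept, 2553 to 4934 per library. The deposited matrices hold 27297599 to 30361474 UMIs per library in all, and the median kept cell had 1408 to 2357 UMIs. Each cell was placed in a class by marker genes. The tested classes were 4504 endothelial cells (EC), 4353 microglia, 1691 choroid plexus cells, 539 astrocytes, 487 pericytes, 468 arterial smooth muscle cells (aSMC), 210 ependymal cells and 112 T cells. Although CD31 marks EC, 31.2% of the kept cells were EC and 30.2% microglia, and the EC markers summed to 18729 to 22545 CPM in EC and the microglial markers to 15663 to 17781 CPM in microglia. CSD library 2 stood apart in that 32.6% of its UMIs lay in kept cells, against 51.8% to 56.8% in the others. Among the EC, 2270 were capillary, 294 arterial and 199 venous. Cells with markers of 2 classes (1227) or with too few markers (461) were left out. Pairs of libraries shared 0 to 9 cell barcodes. Levels are CPM, the UMIs of the gene scaled to 1000000 UMIs of that class in that library, and a mean ± SD is over the 4 libraries unless a condition is named. Because each library is a pool and the library is the unit, p-values measure only the spread between these pools, and an exact permutation of 2 against 2 libraries cannot give a p below 0.333. Within a class, a change in the mixture of captured cells and a change within each cell cannot be told apart. Counting intervals are exact, at 95%, and cover counting error only.

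On GRCm38 (GENCODE annotation, whole gene) Bcl2 lies at chr1:106538178-106714274 on the minus strand and Bcl2l1 at chr2:152780668-152831728 on the minus strand. Mcl1 lies at chr3:95658788-95663176 on the plus strand. Bcl2l11 lies at chr2:128126038-128162547 on the plus strand, Bax at chr7:45461697-45466898 on the minus strand and Bbc3 at chr7:16308393-16318205 on the plus strand. The A1 genes are near-identical copies on chromosome 9. Bcl2a1b lies at chr9:89199209-89207827 on the plus strand and Bcl2a1d at chr9:88723285-88731914 on the minus strand. Another copy that is no member, Bcl2a1a, lies at chr9:88956900-88962419 on the plus strand.

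How alike the A1 copies are bears on every count given for them, so a stretch before the annotated start of Bcl2a1b and the stretch of Bcl2a1d that matches it are shown (RefSeq promoter sequences, GRCm38.p6, printed 5′ to 3′ on the strand of the gene). Capitals mark bases that differ between the copies or are missing from the other one.
Bcl2a1b, chr9:89199023-89199164, plus strand: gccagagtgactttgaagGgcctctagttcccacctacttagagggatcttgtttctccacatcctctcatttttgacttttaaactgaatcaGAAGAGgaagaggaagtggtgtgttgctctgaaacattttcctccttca
Bcl2a1d, chr9:88731915-88732050, minus strand: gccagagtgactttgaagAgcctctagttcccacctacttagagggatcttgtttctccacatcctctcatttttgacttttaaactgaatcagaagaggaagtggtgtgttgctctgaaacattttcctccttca
Over 142 aligned columns the pair shared 135 (95.1%), and the matching stretch of Bcl2a1a was the same as that of Bcl2a1b at 142 of 142. The likeness runs on to the transcript ends that a 3′ assay reads. Of the 90-base windows in the last 500 bases of Bcl2a1b, 66.2% also occurred in another gene, and of those of Bcl2a1d 65.2%. Reads from such windows cannot be assigned to 1 gene, so the split of A1 counts between the copies is uncertain and may leave out part of the A1 mRNA. Bax shared 12.1% of its windows with the overlapping gene model Gm45808, and for the other 6 members the share was 0.

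Mcl1 was called against EC in all 7 other classes and in both comparisons of cell states given further on, so the 250 bases before its RefSeq start (GRCm38.p6) are shown with the GC box (GGGCGG or its reverse complement) in capitals.
Mcl1, chr3:95658471-95658720, plus strand: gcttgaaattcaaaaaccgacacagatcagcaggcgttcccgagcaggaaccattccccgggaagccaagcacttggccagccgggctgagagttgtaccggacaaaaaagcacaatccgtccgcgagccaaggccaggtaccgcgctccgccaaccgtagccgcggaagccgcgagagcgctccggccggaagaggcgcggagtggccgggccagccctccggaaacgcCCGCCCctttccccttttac
A GC box occurred in 32.7% of the 32851 promoter windows searched, on either strand. The Mcl1 window held no match to the AP-1 motif TGANTCA, which is present in 6.75% of the windows. The windows of Bcl2a1b and Bcl2a1d held 1 AP-1 match each. The window of Bax held 1 match to the p53 half-site, found in 7.13% of the windows, and the windows of Bbc3 held 0. The NF-kappaB motif, found in 3.90% of the windows, had 2 matches in 1 window of Bbc3 and 1 in 1 window of Bcl2l1. The window of Bcl2 held 7 GC boxes, as did 1 window of Bbc3. A match describes the letters in the window and says nothing about binding.

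Among the tested classes, to which the orders of all 9 genes here are limited, Mcl1, the short-lived survival gene, was highest in microglia. Its level there was 1902 and 1483 CPM in CSD libraries 1 and 2 and 1826 and 1389 CPM in HC libraries 1 and 2 (1650 ± 252, n = 4). In EC it was 715 and 687 CPM in the CSD libraries and 531 and 478 CPM in the HC libraries (603 ± 116, n = 4). Every microglial value lay above every EC value. T cells followed with 380 ± 181 CPM, then aSMC (342 ± 88.1), ependymal cells (268 ± 78.3), pericytes (250 ± 32.3) and astrocytes (186 ± 69.1), and the libraries of neighbours in this order overlapped from EC down to astrocytes. Choroid plexus cells, at 65.4 ± 7.26 CPM, lay below all astrocyte values and below the level among barcodes of at most 100 UMIs, which hold free RNA (165 to 232 CPM). The astrocyte mean lay within that range, as did the lowest libraries of pericytes (206 CPM), T cells (207 CPM) and ependymal cells (220 CPM). Against EC, edgeR's quasi-likelihood test with Benjamini-Hochberg adjustment over 10572 genes called Mcl1 higher in microglia by 1.82 ± 0.19 (log2 fold change with its SE, adjusted p = 2.6e-12). It called Mcl1 lower in the other 6 classes, from -0.59 ± 0.19 in aSMC and -0.61 ± 0.24 in T cells (adjusted p = 0.0466) to -2.35 ± 0.19 in choroid plexus cells. The aSMC call was lost without CSD library 1 (-0.43) and without HC library 1 (-0.48). The T cell value lay near the median over all genes in that class (-0.66). The T cell call was lost with RLE scaling, with at most 10% mitochondrial UMIs and with classes taken from clusters.

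Bcl2l1, which encodes BCL-XL, showed another order, with EC at the top. In EC its level was 218 and 276 CPM in the CSD libraries and 211 and 180 CPM in the HC libraries (221 ± 40.2, n = 4), and each of these values lay above every value of the next class. Pericytes held 67.3 ± 37.8 CPM, astrocytes 66.2 ± 34.7 and ependymal cells 59.3 ± 9.76. Microglia held 40.2 and 31.8 CPM in the CSD libraries and 56.0 and 49.7 CPM in the HC libraries, so both CSD values lay below both HC values there. The lowest levels were in aSMC (31.4 ± 9.46 CPM), choroid plexus cells (27.8 ± 3.62 CPM) and T cells (19.1 ± 7.50 CPM, resting on 5 UMIs). Free RNA held 44.3 to 53.9 CPM of Bcl2l1, so the 4 lowest classes lay near or under that level. Bcl2l1 was called lower than in EC in all 7 classes, by -1.90 (log2) in astrocytes, -1.96 ± 0.15 in microglia, -1.99 in ependymal cells, -2.07 ± 0.25 in pericytes, -2.15 in choroid plexus cells, -2.56 ± 0.20 in aSMC and -3.43 ± 0.46 in T cells (edgeR).

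**Figure D1:**
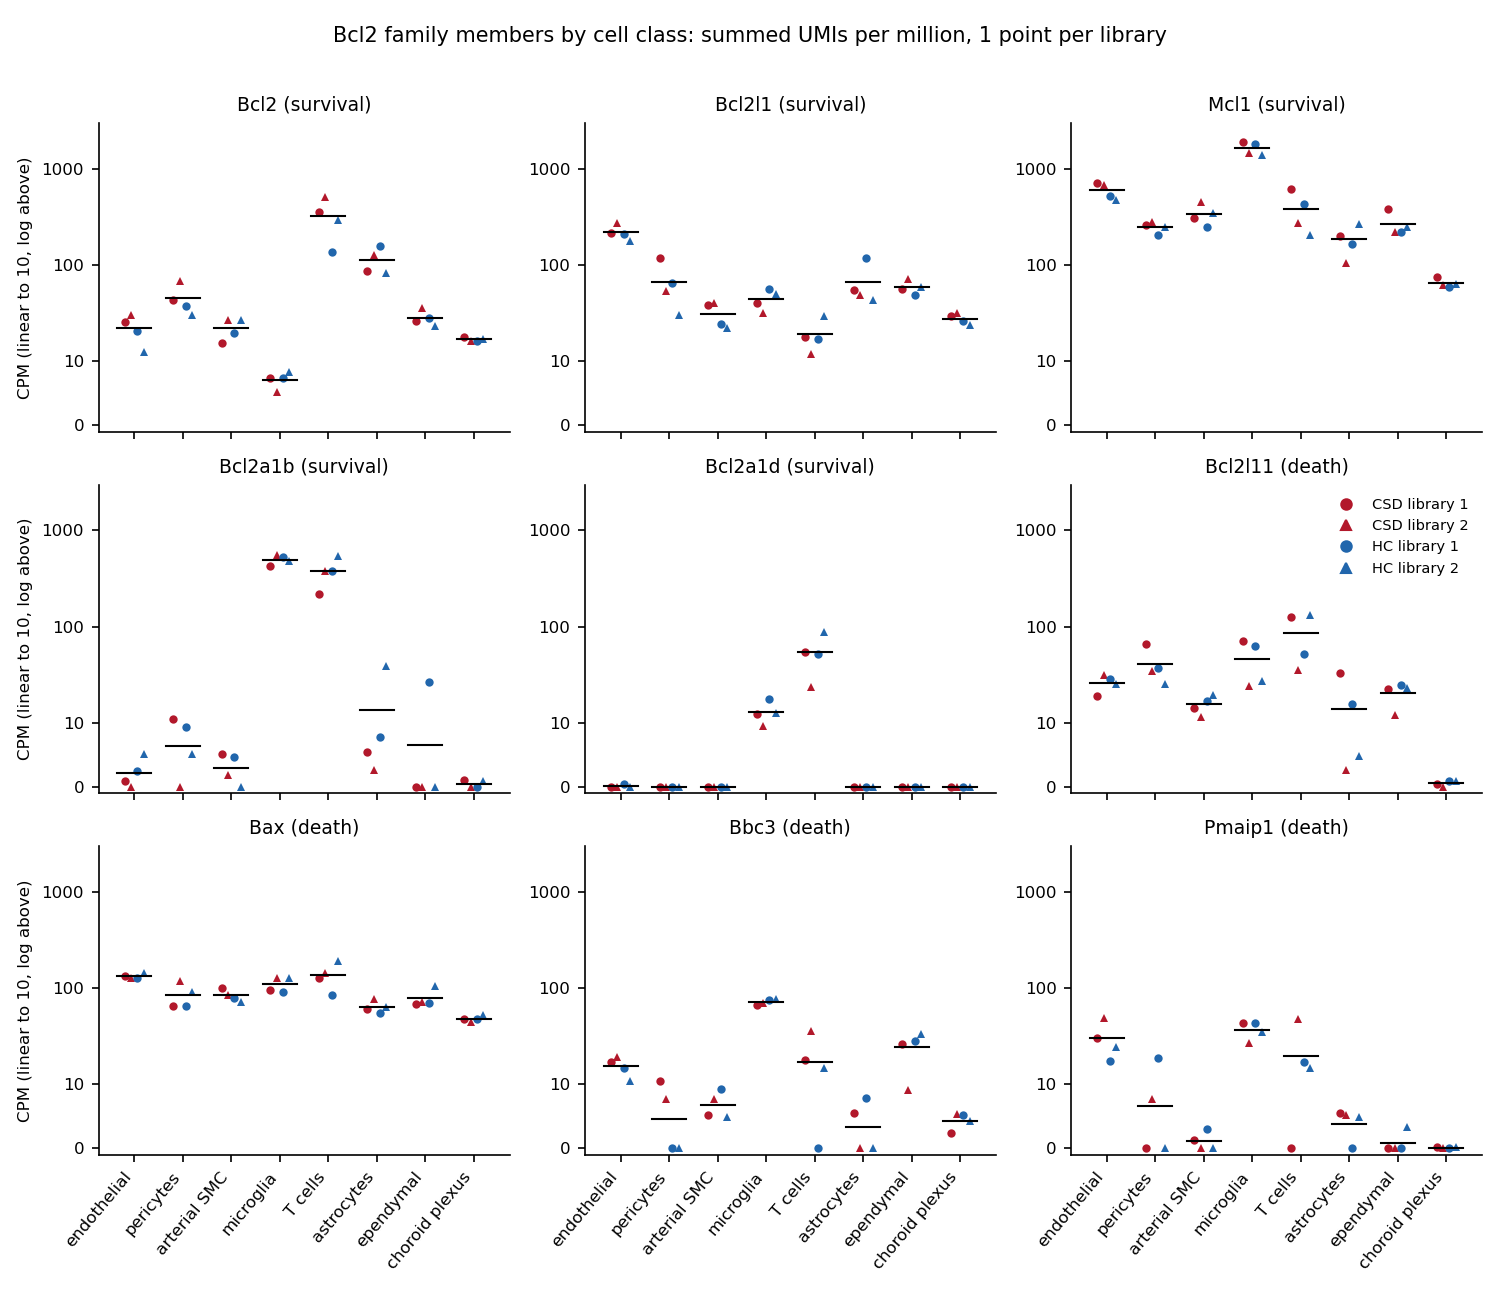
Level of each of the 9 genes (CPM, axis linear to 10 and log above) in 8 cell classes, with 1 point per library (2 CSD, 2 HC) and a bar for the mean of the 4 libraries. Mcl1 and Bbc3 have their 4 highest points in microglia, Bcl2l1 in EC, and Bcl2 its highest points in T cells, while outside microglia and T cells Bcl2a1d is at or near 0 and Bcl2a1b reaches at most 38.6 CPM, in astrocytes of HC library 2.

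Bcl2, the founding survival gene and a known support of lymphocyte survival, was highest in T cells and next highest in astrocytes. The T cell level was 361 and 508 CPM in the CSD libraries and 137 and 296 CPM in the HC libraries (326 ± 154, n = 4), resting on 20, 43, 8 and 20 UMIs. In astrocytes it was 87.7 and 129 CPM in the CSD libraries and 157 and 82.1 CPM in the HC libraries (114 ± 35.5, n = 4), so the lowest T cell library overlapped the astrocytes. Astrocytes lay above pericytes (45.1 ± 16.7 CPM) in all libraries. EC held 25.5, 30.2, 20.9 and 12.5 CPM in CSD 1, CSD 2, HC 1 and HC 2, and microglia 7.06 ± 1.29 CPM, under the 12.4 to 16.5 CPM of free RNA. Relative to EC, Bcl2 was called higher in T cells by 4.01 ± 0.28 and in astrocytes by 2.27 ± 0.25, and lower in microglia by -1.31 ± 0.24 (log2, edgeR). In choroid plexus cells it was called higher by 0.51 ± 0.19 with TMM scaling and was lower, at -0.35, with scaling to total UMIs.

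Among the tested classes the A1 genes had their highest levels in microglia and T cells. The 12 neutrophils, too few to test, held 484 CPM of Bcl2a1b on 8 UMIs (95% counting interval 209 to 955). In microglia Bcl2a1b was at 426 and 557 CPM in the CSD libraries and 530 and 483 CPM in the HC libraries (499 ± 57.5, n = 4). In T cells it was at 216 and 378 CPM in the CSD libraries and 377 and 548 CPM in the HC libraries (380 ± 135, n = 4), which overlapped microglia. The microglial marker genes summed to 72.1 to 188 CPM in T cells, where the T cell markers summed to 4599 to 6249 CPM. In EC the gene had 16 UMIs in all (0 to 5.12 CPM per library), in choroid plexus cells 16, in aSMC 8 and in pericytes 3, below the free RNA level of 35.4 to 47.1 CPM. It was called higher than in EC by 8.26 ± 0.36 in microglia and by 7.61 ± 0.49 in T cells (log2, edgeR).
Bcl2a1b was also called higher than in EC in astrocytes (2.54 ± 0.94) and in ependymal cells (2.18 ± 0.82). The astrocyte value rested on 11 UMIs, 8 of them in HC library 2, where microglial markers summed to 1227 CPM in astrocytes, against 167 CPM in the lowest library, and the part of this signal in the call was not tested. Without HC library 2 the astrocyte call was lost. The ependymal value rested on 15 UMIs that all lay in 1 cell of HC library 1. Without that library the ependymal difference was -4.12, and it was -4.24 without the cells marked as doublets.
Bcl2a1d was counted far less often. In T cells it was at 54.1 and 23.6 CPM in the CSD libraries and 51.4 and 88.8 CPM in the HC libraries (14 UMIs), and in microglia at 12.5 and 9.43 CPM in the CSD libraries and 17.6 and 12.6 CPM in the HC libraries (138 UMIs). EC held 1 UMI, and pericytes, aSMC, choroid plexus cells, ependymal cells and astrocytes held 0. Against that single EC UMI, the ratio of levels was 103 in microglia (95% counting interval 18.1 to 4088) and 421 in T cells (64.0 to 17794).

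Among the death genes, Bbc3, which encodes PUMA, was highest in microglia. Its level was 66.1 and 69.5 CPM in the CSD libraries and 75.7 and 76.3 CPM in the HC libraries (71.9 ± 4.91, n = 4), above every value of the next class, ependymal cells (24.1 ± 10.4 CPM). In EC it was 17.0 and 19.1 CPM in the CSD libraries and 14.8 and 10.8 CPM in the HC libraries (15.4 ± 3.53, n = 4). Bbc3 was called higher in microglia than in EC by 2.56 ± 0.19 (log2, edgeR), and lower in choroid plexus cells by -1.05 (-1.92 with scaling to total UMIs). Pericytes held 3 UMIs and astrocytes 2, so their ratios to EC carry wide counting intervals, 0.292 (0.0594 to 0.873) and 0.141 (0.0169 to 0.521).

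Pmaip1 (GRCm38 chr18:66458533-66465565, plus strand), which encodes NOXA, was found mainly in microglia and EC. Microglia held 43.1 and 26.9 CPM in the CSD libraries and 42.9 and 34.9 CPM in the HC libraries (37.0 ± 7.72, n = 4). EC held 30.2 and 48.3 CPM in the CSD libraries and 17.3 and 24.5 CPM in the HC libraries (30.1 ± 13.3, n = 4), which overlapped microglia. T cells came next with 19.8 CPM on 6 UMIs, 0 of them in CSD 1 and 4 in CSD 2, and free RNA held 1.71 to 6.56 CPM. Pericytes and astrocytes held 4 UMIs each, choroid plexus cells 4, aSMC 3 and ependymal cells 1. It was called lower than in EC in choroid plexus cells by -6.28 ± 0.41, in astrocytes by -2.79 and in pericytes by -2.46 ± 0.65, and higher in microglia by 0.67 ± 0.20 (log2, edgeR). The microglial call was lost with scaling to total UMIs (0.31) and without HC library 1 (0.42), and the difference was 1.10 without CSD library 2. The ratios to EC were 0.0416 in aSMC (counting interval 0.00851 to 0.123) and 0.0222 in ependymal cells (0.000559 to 0.125).

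Bcl2l11, which encodes BIM, was at 70.2 and 24.1 CPM in microglia of CSD libraries 1 and 2 and at 63.4 and 27.5 CPM in those of HC libraries 1 and 2. The first library of each condition was thus above the second. T cells held 126, 35.5, 51.4 and 133 CPM in CSD 1, CSD 2, HC 1 and HC 2. These levels rest on 7, 3, 3 and 9 UMIs, and the 3 of HC 1 lay in 1 cell. Pericytes held 40.6 ± 17.2 CPM and EC 26.0 ± 5.46 CPM (18.9 to 31.6 CPM, n = 4). It was called higher than in EC in microglia by 1.10 ± 0.21 and in T cells by 1.77 ± 0.49, and lower in choroid plexus cells by -4.30 ± 0.34 (log2, edgeR), where the whole class held 20 UMIs. The T cell call was lost without CSD library 1 (1.33) and without HC library 2 (1.18).
Bax, the pore former, was counted in all 8 classes. It was at 137 ± 44.2 CPM in T cells and at 134, 126, 128 and 142 CPM in EC of CSD 1, CSD 2, HC 1 and HC 2 (133 ± 7.26, n = 4). In microglia it was at 94.8 and 129 CPM in the CSD libraries and at 91.2 and 127 CPM in the HC libraries, so that here the second library of each condition was above the first. Choroid plexus cells were lowest at 47.9 ± 3.07 CPM, at the lower edge of the free RNA level (47.8 to 72.2 CPM). The astrocyte mean (63.8 ± 9.55 CPM) lay within that level. The lowest pericyte, aSMC and ependymal libraries (65.3, 71.3 and 67.8 CPM) did too. Bax was called lower than in EC in 5 classes, by -0.39 ± 0.16 in aSMC, -0.61 in choroid plexus cells, -0.71 ± 0.22 in pericytes, -0.82 in ependymal cells and -1.02 in astrocytes, and was not called in microglia (adjusted p = 0.586) or T cells. The aSMC call was lost without any 1 of the 4 libraries (-0.31 to -0.46), and the pericyte call with RLE scaling, with classes taken from clusters and without CSD library 1 or HC library 1 (-0.50 to -0.57). In choroid plexus cells the Bax difference was -1.46 with scaling to total UMIs.

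Counted over the 7 classes, 42 of the 63 comparisons with EC were called at an adjusted p under 0.05, 14 higher and 28 lower. Microglia had 6 genes higher, against 31.6% of all genes, and 2 lower, against 30.6%. T cells had 4 higher (9.88% of all genes) and 2 lower (19.8%). Pericytes had 0 higher (11.3%) and 5 lower (17.4%), and aSMC 0 higher (21.1%) and 4 lower (23.4%). Choroid plexus cells had 1 higher (36.5%) and 6 lower (38.9%), ependymal cells 1 higher (29.2%) and 4 lower (33.2%), and astrocytes 2 higher (23.6%) and 5 lower (24.9%). In pericytes the 5 lower genes were Bcl2l1, Mcl1, Bax, Bbc3 and Pmaip1, of which Bbc3 was called in 4 of the 12 settings and Bax in 8. The fold changes were not shifted by the median over all genes. That median was -0.66 in T cells, -0.19 in ependymal cells, -0.13 in pericytes and near 0 in the other classes. Scaling to total UMIs moved that median by -0.85 in choroid plexus cells, -0.35 in microglia, -0.24 in aSMC, -0.12 in T cells and 0.15 in pericytes, and RLE scaling moved it by 0.33 in astrocytes, 0.25 in ependymal cells, 0.20 in pericytes and -0.13 in microglia.

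Within the EC, Mcl1 was higher in venous than in capillary EC, and Pmaip1 was lower in arterial than in capillary EC. Mcl1 was at 1103 and 882 CPM in venous EC of the CSD libraries and at 758 and 685 CPM in those of the HC libraries, against 624, 633, 427 and 432 CPM in capillary EC of CSD 1, CSD 2, HC 1 and HC 2. In each library the venous value was the higher one. The venous cell richest in Mcl1 held 28 of 228 Mcl1 UMIs in CSD 1 and 34 of 111 in CSD 2. In HC 1 it held 23 of 143 and in HC 2 11 of 61. Pmaip1 was at 44.7, 68.7, 33.7 and 35.3 CPM in capillary EC, and at 6.24, 0, 0 and 10.3 CPM in arterial EC (5 UMIs in all). In venous EC it was at 33.9 and 39.7 CPM in the CSD libraries and at 0 CPM in each HC library (12 UMIs in all). Of these UMIs, 1 cell held 3 of 7 in CSD 1 and 1 cell held 4 of 5 in CSD 2. The HC libraries had only 46 and 52 venous EC. The test of each subtype against capillary EC over 5836 genes, with library as a term, was chosen after these levels had been seen and covered 5 of the genes. It called Mcl1 higher in venous EC by 0.75 ± 0.11 (edgeR quasi-likelihood, Benjamini-Hochberg adjusted p = 2.1e-06), the 1 member higher there (5.98% of all genes) with 0 lower (3.22%). In arterial EC it called Pmaip1 lower by -3.38 ± 0.52 (adjusted p = 1.8e-06), the 1 member lower there (12.2% of all genes) with 0 higher (14.2%). That value rests on the 5 arterial UMIs, and Pmaip1 passed the filter of this fit through capillary EC. It could be tested in 7 settings, against 9 for Mcl1. With subtypes taken from clusters the Pmaip1 difference was -1.71. Arterial EC carried aSMC markers at a summed 1641 to 2829 CPM and pericyte markers at 834 to 2124 CPM, against 73.1 to 205 and 63.3 to 209 CPM in capillary EC, and the part of these other cells, where Pmaip1 was near 0, in its lower arterial level was not tested. Bcl2l1 in arterial EC, at 189, 186, 228 and 186 CPM, lay within the range of the capillary values.

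CSD and HC were then compared class by class, to ask whether 14 days of defeat went with a change in the survival and death genes. With edgeR's quasi-likelihood test and Benjamini-Hochberg adjustment, 0 of the 50 comparisons of a gene in a class were called in the 11 classes and EC subtypes. DESeq2 also called 0, but it did not test the same set. It kept 3 of the 7 genes in EC, 3 of 7 in capillary EC and 2 of 3 in venous EC. Bcl2 and Pmaip1 were not among those kept in EC. An unadjusted p under 0.05 was reached in 8 of the 50, of which 3 were in EC and 3 in capillary EC, a part of the same cells. The share of all genes at that level ran from 1.5% in microglia to 8.96% in capillary EC. The share of all genes called was 0.148% in EC, 0.295% in capillary EC, 0.106% in arterial EC, 0.341% in venous EC, 0.293% in astrocytes, 0.0605% in choroid plexus cells and 0% in microglia, T cells, pericytes, aSMC and ependymal cells.

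In EC, 5 of the 7 genes that could be tested had both CSD libraries above both HC libraries in TMM-scaled level, against 18.1% of all genes. These were Bcl2, Bcl2l1, Mcl1, Bbc3 and Pmaip1, so survival and death genes were both among them. Bcl2 was at 20.9 and 12.5 CPM in EC of HC 1 and HC 2, beside 15.6 and 12.4 CPM in their free RNA. Bbc3 was at 14.8 and 10.8 CPM there (29 and 19 UMIs), beside 11.0 and 11.9 CPM in free RNA. The part of free RNA in the changes of these genes was not tested. The median log2 fold change of the 7 genes was 0.52, beside -0.01 over all genes tested. Mcl1 had a mean of 701 ± 19.5 CPM in CSD and of 504 ± 37.5 CPM in HC (SD, n = 2 each), a ratio of 1.39 and a log2 fold change of 0.52 ± 0.16 (edgeR adjusted p = 0.418). Pmaip1 had a ratio of 1.88 (0.96 ± 0.27, adjusted p = 0.356, edgeR) and Bcl2 one of 1.67 (0.76 ± 0.28, adjusted p = 0.531, edgeR). These 3 of 7 had an unadjusted p under 0.05, against 7.65% of all genes, and the DESeq2 test gave 1 of the 3 genes it retained. Bcl2l1 (0.38 ± 0.17, edgeR adjusted p = 0.670) and Bbc3 (0.52 ± 0.30, edgeR adjusted p = 0.737) did not reach it. Bcl2l11 (-0.05 ± 0.27) and Bax (-0.01 ± 0.15) had fold changes near 0.

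The EC result depended on the libraries used. Over 15 settings, each library left out among them, the EC log2 fold change was 0.22 to 0.54 for Bcl2l1 and 0.43 to 0.63 for Mcl1. For Pmaip1 it was 0.60 to 1.26 over 14 settings. In capillary EC these ranges were 0.40 to 0.72, 0.51 to 0.62 and 0.43 to 1.15. Bcl2 in T cells ran from 0.67 to 1.75. With 1 library left out, the number of genes called changed for the members and for all genes alike. Each such fit compares 1 library with 2 and assumes that the lone library varies as the others do.

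**Figure D2:**
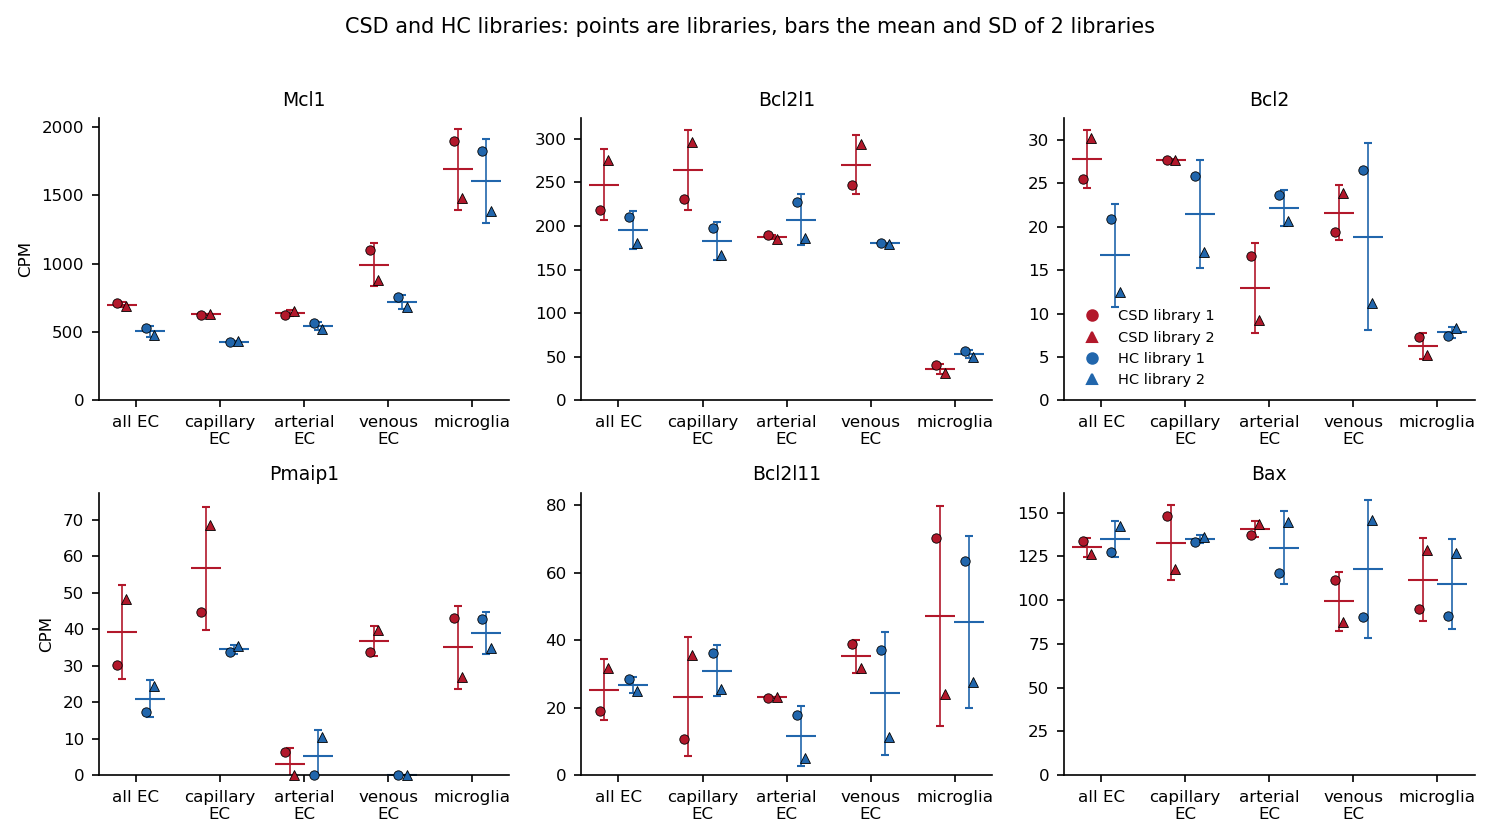
Level (CPM, linear axis from 0) of 6 of the genes in all EC, the EC subtypes and microglia, with 1 point per library and a bar for the mean and SD of the 2 libraries of each condition. In EC the CSD points of Mcl1 (715 and 687) lie above the HC points (531 and 478), and in microglia the conditions overlap for Mcl1.

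The 2270 capillary EC were then taken alone. Mcl1 had a ratio of 1.46 (log2 fold change 0.58 ± 0.16, edgeR adjusted p = 0.187). Bcl2l1 was at 231 and 296 CPM in the CSD libraries and 198 and 167 CPM in the HC libraries, a ratio of 1.45 (0.57 ± 0.18, edgeR adjusted p = 0.336). Pmaip1 had a ratio of 1.64 (0.79 ± 0.27, edgeR adjusted p = 0.358). These 3 of 7 had an unadjusted p under 0.05, against 8.96% of all genes, and 5 of 7 had both CSD libraries above both HC libraries, against 19.6%. The other 4 genes were Bbc3 (0.75 ± 0.43), Bcl2 (0.40 ± 0.35), Bcl2l11 (-0.23 ± 0.41) and Bax (-0.01 ± 0.19).
In venous EC, 2 of 3 genes tested had both CSD libraries above both HC libraries, against 18.6% of all genes. These were Mcl1 (0.47 ± 0.25, edgeR adjusted p = 0.624) and Bcl2l1 (0.58 ± 0.31, edgeR adjusted p = 0.638). In CSD library 2, 34 of the 111 venous Mcl1 UMIs lay in 1 cell. Bcl2l1 there was at 247 and 294 CPM in the CSD libraries and 180.2 and 179.6 CPM in the HC libraries. In arterial EC, Mcl1 was at 626, 654, 565 and 523 CPM in CSD 1, CSD 2, HC 1 and HC 2 (0.22 ± 0.20), and Bcl2l1 had a fold change of -0.17 ± 0.24.

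In microglia all 9 genes could be tested. Bcl2l1 was lower in CSD with a ratio of 0.681 (-0.51 ± 0.21, edgeR adjusted p = 0.9999), the 1 of 9 genes with an unadjusted p under 0.05, against 1.5% of all genes. DESeq2 gave 0 of 9. Microglial Bcl2l1 (31.8 to 56.0 CPM over the libraries) lay around the 44.3 to 53.9 CPM of free RNA, whose part in this change was not tested. Bcl2l1 and Bcl2a1d (-0.42 ± 0.29) had both CSD libraries below both HC libraries in TMM-scaled level, 2 of 9 against 12.1% of all genes, and 0 of 9 had them above, against 10.7%. In CPM, but not in TMM-scaled level, Bcl2 and Bbc3 also had that order, and the share of all genes with it in CPM was not computed. The fold changes of the others lay between -0.27 ± 0.38 for Bcl2 and 0.11 ± 0.30 for Mcl1, with Bcl2a1b at 0.01 ± 0.29, Bax at 0.08 ± 0.31 and Bbc3 at -0.12 ± 0.22. IEG-high microglia of CSD library 2 had a median of 5535 UMIs, and the part of this depth in these values was not tested.
In T cells Bcl2 was higher in CSD by 1.07 ± 0.42 (edgeR adjusted p = 0.837), the 1 of 3 genes tested with an unadjusted p under 0.05, against 5.4% of all genes. Both HC values, 137 and 296 CPM, lay under both CSD values, 361 and 508 CPM, the 1 of 3 genes with such an order, against 16.1% of all genes. The libraries held 28, 21, 18 and 45 T cells in CSD 1, CSD 2, HC 1 and HC 2, and 7 of the 43 Bcl2 UMIs of CSD library 2 lay in 1 cell.
In pericytes, aSMC, choroid plexus cells, ependymal cells and astrocytes, 2, 4, 5, 3 and 4 of the genes could be tested, and 0 had an unadjusted p under 0.05, against 5.13%, 2.91%, 3.38%, 3.33% and 3.19% of all genes. The same held for the 3 genes tested in arterial EC (6.53%) and the 3 in venous EC (8.49%). In aSMC, Bcl2l1 lay under the 44.3 to 53.9 CPM of free RNA, whose part in its change was not tested. It was at 38.8 and 40.4 CPM in the CSD libraries and 24.5 and 22.1 CPM in the HC libraries, a ratio of 1.70 (0.72 ± 0.35, edgeR adjusted p = 0.9995). With Bax, 2 of 4 genes there had both CSD libraries above both HC libraries in TMM-scaled level, against 14.3% of all genes. The same order held for Mcl1 in pericytes (1 of 2, against 17% of all genes), Bcl2l1 in choroid plexus cells (1 of 5, against 14.3%) and Mcl1 in arterial EC (1 of 3, against 17.3%), and for 0 genes in ependymal cells (15.7%) and astrocytes (12.4%). Bax in choroid plexus cells had both CSD libraries below both HC libraries (1 of 5, against 14.8% of all genes).

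**Figure D3:**
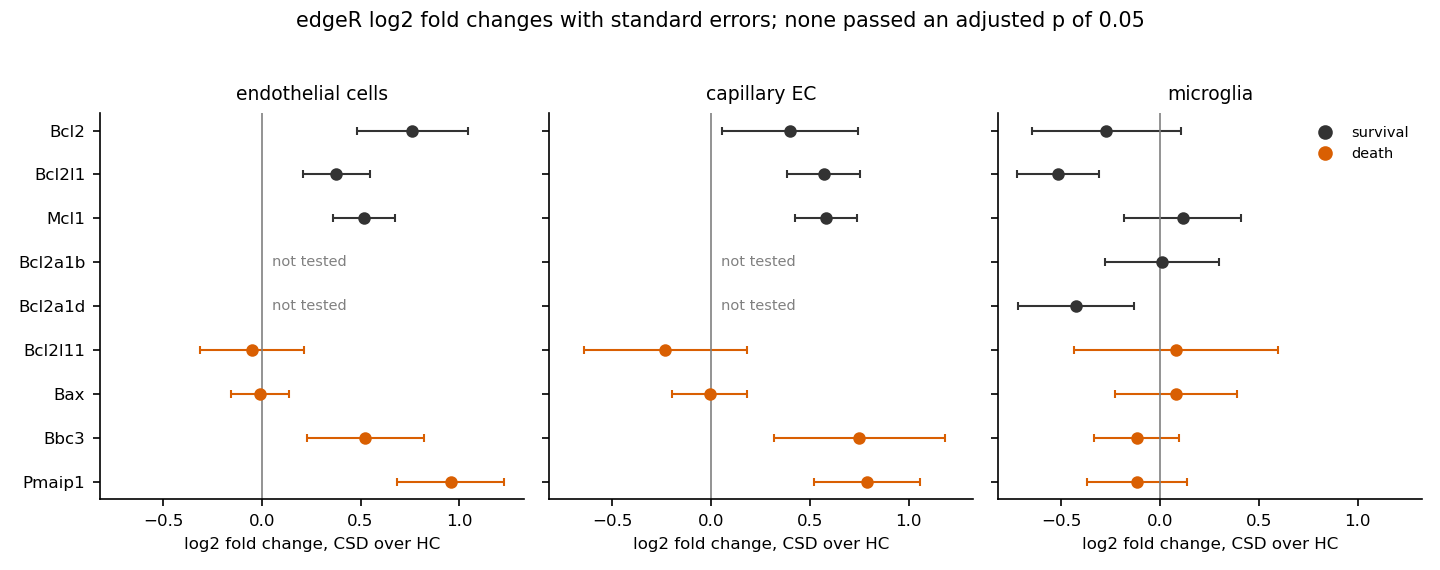
Log2 fold change of CSD over HC for each gene tested, in EC, capillary EC and microglia, with bars for the SE from edgeR's quasi-likelihood fit. In EC and capillary EC, Mcl1, Bcl2l1, Bcl2, Bbc3 and Pmaip1 lie above 0 and Bax lies at -0.01, while in microglia Bcl2l1 lies at -0.51.

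Whether the effect of CSD differed between microglia and EC was tested by the interaction of class and condition over 11324 genes. Of the 9 genes, 0 were called, beside 0% of all genes. Each value is the log2 fold change of CSD over HC in microglia minus that in EC, with signs kept. An unadjusted p under 0.05, which 3.34% of all genes reached, was found for Bcl2 (-1.05 ± 0.48), Bcl2l1 (-0.90 ± 0.33), Pmaip1 (-1.08 ± 0.39) and Bcl2a1b (2.81 ± 1.003). The adjusted p of each was 1 (edgeR). Bcl2a1b and Bcl2a1d had 16 UMIs and 1 UMI in EC, were not tested for CSD there, and passed the filter through microglia. The EC level of Bcl2a1b, 0 to 5.12 CPM, lay under that of free RNA (35.4 to 47.1 CPM). A count of members that includes these 2 genes is therefore not comparable with the share of all genes. A value below 0 does not mean a weaker change in microglia. The CPM ratio of CSD over HC for Bcl2l1 was 1.27 in EC and 0.681 in microglia. For Bcl2 these ratios were 1.67 and 0.805, and for Pmaip1 1.88 and 0.900. In microglia Bcl2l1 lay around its free RNA level, and Bcl2 (5.24 to 8.28 CPM) lay under its own (12.4 to 16.5 CPM). The part of free RNA in these ratios was not tested.

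The study describes EC and microglia that carry immediate early gene (IEG) mRNA, the first transcripts to rise when a cell is stimulated. It states that its IEG+ EC may stem from the enzymatic and mechanical isolation. For the same concern it left the IEG+ EC and IEG+ microglia out of its cell communication networks. The part of the isolation in the IEG values given here was not tested. Cells with at least 1% of their UMIs in Fos, Jun, Junb and Egr1 are called IEG-high here, which is a line drawn through a range and not a cell type. IEG-high cells made up 29.4% and 25.8% of EC in the CSD libraries and 20.8% and 22.6% in the HC libraries, and 70.4%, 58.4%, 65.8% and 64.9% of microglia in CSD 1, CSD 2, HC 1 and HC 2. Between 62 and 122 EC and between 135 and 275 microglia per library had a share of 0.8% to 1.2%, close to the line.

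Mcl1 was higher in IEG-high cells of both classes. In EC it was at 863, 857, 790 and 680 CPM in the IEG-high cells of CSD 1, CSD 2, HC 1 and HC 2, and at 605, 555, 401 and 361 CPM in the other EC. The IEG-high value was the higher one in 4 of 4 libraries. In microglia it was at 2012, 1622, 1951 and 1513 CPM in the IEG-high cells and at 1621, 1166, 1517 and 1165 CPM in the others. With library as a term, edgeR called Mcl1 higher by 0.82 ± 0.09 in EC (adjusted p = 4.1e-09) and by 0.32 ± 0.06 in microglia (adjusted p = 1.8e-06). With the line at 0.5% of UMIs the microglial difference was 0.93. Of the 7 genes tested in EC it was the 1 called higher, against 8.18% of all genes, and 0 were called lower, against 5.72%. Of the 8 genes tested in microglia, 2 were called higher, against 4.27% of all genes, and 0 lower, against 5.27%. The share of IEG-high EC moved with condition as Mcl1 did, and its part in the higher Mcl1 of CSD EC was not tested.
Bbc3 was the other gene called in microglia, at 71.5, 74.4, 83.4 and 87.5 CPM in IEG-high cells and at 52.2, 58.5, 56.6 and 56.0 CPM in the others (0.44 ± 0.13, edgeR adjusted p = 0.0100). That call was lost without HC library 1 (adjusted p = 0.0731), without HC library 2 (0.0900), with a line at 0.5% (0.0716) or 2% (0.24) and with at least 1000 UMIs per cell (0.0619), all from edgeR. In EC its difference was 0.55 ± 0.27 (edgeR adjusted p = 0.186). IEG-high EC were deeper, with a median of 1767, 2452, 2354 and 1345 UMIs against 1149, 1349, 1454.5 and 817 in the other EC. IEG-high microglia of CSD 1, CSD 2 and HC 1 had a median of 1911, 5535 and 2851 UMIs, against 1841.5, 2028.5 and 2027.5 in the others. In HC 2 the order was reversed, with 1780 against 2058. The part of depth in these differences was not tested.

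**Figure D4:**
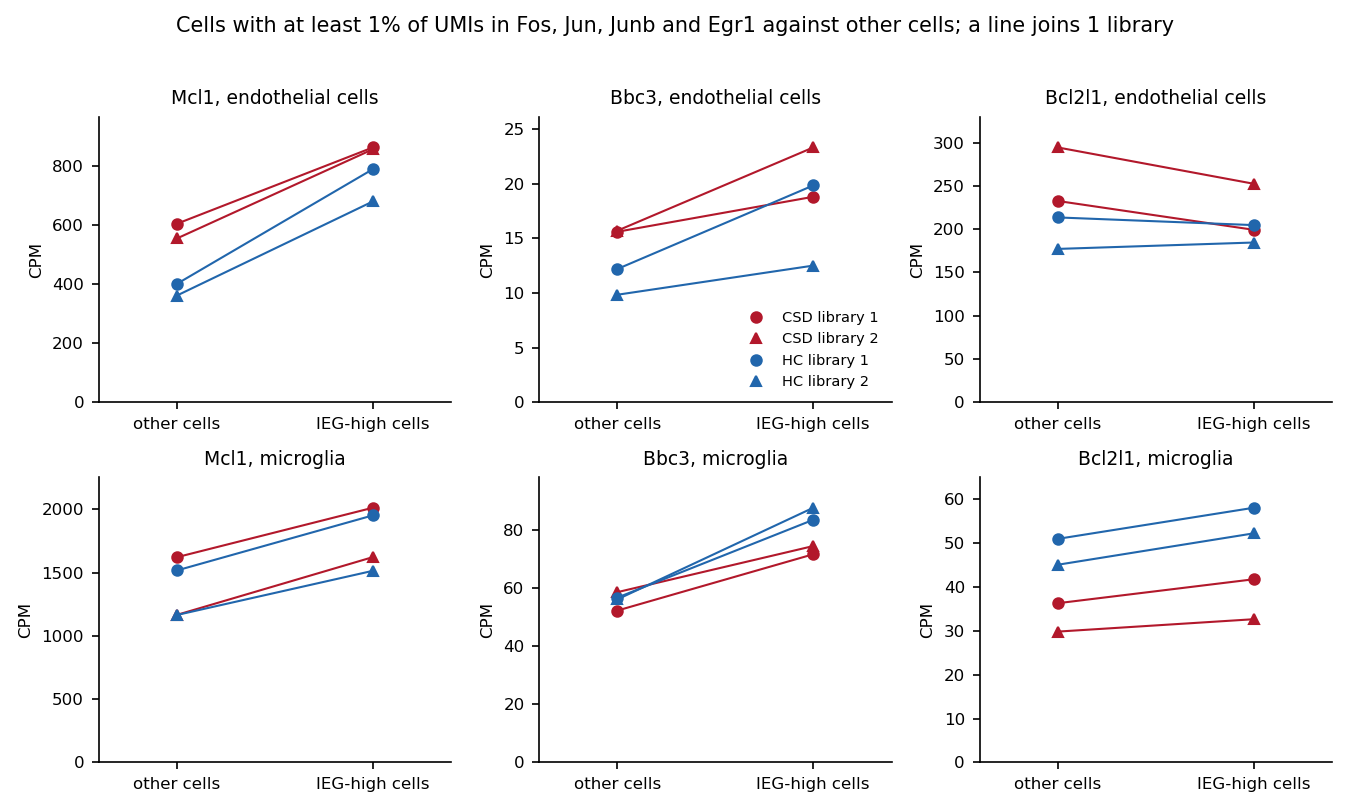
Level (CPM) of Mcl1, Bbc3 and Bcl2l1 in IEG-high and other cells, in EC and in microglia, with a line joining the 2 states of each library. Every Mcl1 line rises from the other cells to the IEG-high cells, in EC from 361 to 605 CPM up to 680 to 863 CPM.

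Related genes were counted from pathway lists that were chosen with earlier results of these data known. In EC, 0 of the 9 other Bcl2 family genes tested (median log2 fold change of CSD over HC -0.03) and 0 of 20 genes of the apoptosis machinery (-0.04) were called. The p53 list had 2 of 10 genes called higher and 0 lower (median 0.26), where 0.148% of all genes were called in either direction and the median of all genes was -0.01. These were Cdkn1a, a cell cycle inhibitor (1.49 ± 0.16, edgeR adjusted p = 0.0119), and Trp53inp1, a p53-induced nuclear protein (1.74 ± 0.21, edgeR adjusted p = 0.0199). Of the NF-kappaB list 0 of 11 and of the IEG list 0 of 14 were called, though all 11 and all 14 had values above 0 (medians 0.48 and 0.53). In microglia 0 genes of any of the lists were called, as were 0% of all genes, with medians from -0.000303 to 0.114. The A1 copy that is no member, Bcl2a1a, had a TMM-scaled level of 19.8 and 46.3 CPM in microglia of the CSD libraries and of 23.7 and 27.9 CPM in those of the HC libraries, on a range that the shared reads above leave uncertain.

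The genes most like 4 of the members across the 8 class means were found by Pearson's r of log2(CPM + 10) over 10691 genes, as a description over 8 points that share the same libraries. Bcl2l1 was most like Kdr (r = 0.977), the VEGF receptor of EC, followed by Rcbtb1, Tiam1, Rnf103 and Dock9 (0.973 to 0.961). Mcl1 was most like Ywhah (0.992), Ppp1r10, Mob1a, Tpm3 and Grb2 (0.962). Bcl2 was most like Gramd3 (0.976), Cyfip2, Btbd11, Ptpn4 and Vav3 (0.911). Bcl2a1b was most like Mthfs (0.996), Itgb2, which encodes the leukocyte integrin beta chain, Arhgap30, Sla and Ncf4 (0.992).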

How the data were processed

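Brain vascular-associated cells of 2 CSD and 2 HC libraries were profiled by 10x Genomics 3′ v3.1 sequencing. The authors aligned reads to GRCm38 (mm10) with Cell Ranger and deposited whole UMI counts for every barcode, empty droplets included. The Cell Ranger version is 3.1.0 per the file headers, 4.0 in the submitters' processing notes and 6.0 in the study's methods. Multimapped reads are not split by such counting, and strand is used.

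Cells were kept at 500 or more UMIs, 250 or more genes and at most 25% mitochondrial UMIs. A class was given by at least 2 distinct markers and a leading marker score, and counts were summed per library and class for classes with at least 10 cells in each library. Sums were tested with edgeR 4.0.16 (quasi-likelihood, TMM, filterByExpr, two-sided) in R 4.3.3, with Benjamini-Hochberg adjustment over all genes tested and a threshold of 0.05. DESeq2 1.42.0 was the alternative test. Comparisons between classes and between IEG states had library as a term. The test of EC subtypes was added after levels were seen. Fits were tested on simulated data. Sequences were read with Biopython 1.88, and clusters for an alternative were made with scanpy 1.11.5. Scrublet marked 4 to 73 cells per library as doublets and only 0.0981% in CSD library 1, where it had hardly worked. No doublets were removed in the reported values.

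The 9 genes, the marker and pathway lists and the tests were chosen with earlier results of these data known. All 9 genes were named. From each pathway list, called genes of largest change were named, and the 5 most alike genes for 4 members. Alternatives were another normalization, filter, cell cut, doublet removal, cluster classes, IEG line, a replicate block and each library left out. The scaling to total UMIs, the lower mitochondrial limit for the class comparison and all alternatives of the subtype test were chosen after seeing the data.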

Additional observations from a re-analysis of the deposited data

Results flagged for a closer look

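Classes too small for a test held levels above the highest free RNA level of the same gene, taking 10 or more summed UMIs and a lower 95% exact Poisson bound above that level. The levels are over the 4 libraries together, with no replicate check, and cover counting error only. Mcl1 was at 2665 CPM (1936 to 3577, 44 UMIs) in 12 neutrophils, 1095 CPM (893 to 1329, 102 UMIs) in 20 monocytes, 822 CPM (718 to 937, 226 UMIs) in 114 border-associated macrophages, 607 CPM (400.1 to 883, 27 UMIs) in 34 B cells and 353 CPM (284 to 436, 88 UMIs) in 78 fibroblasts. Bcl2a1b was at 149 CPM (107 to 202, 41 UMIs) in border-associated macrophages. Bax was at 279 CPM (182 to 409, 26 UMIs) in monocytes, 224 CPM (157 to 310, 36 UMIs) in 50 oligodendrocyte precursor cells and 137 CPM (94.6 to 191, 34 UMIs) in fibroblasts. Bcl2l11 was at 52.2 CPM (27.8 to 89.3, 13 UMIs) in fibroblasts, and Bcl2l1 at 169 CPM (100.01 to 267, 18 UMIs) in 23 oligodendrocytes.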

How the results depend on the processing

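For CSD against HC, 0 member calls became 0 to 7 when 1 library was left out and 1 with a replicate block (Pmaip1 in EC, 0.94, adjusted p = 0.0215, edgeR), and 0 under the other alternatives. The replicate numbers share no stated batch, and the correlation of same-numbered deviations was 0.0601 in EC and 0.437 in microglia. The class comparison gave 35 to 44 calls in place of 42, and the IEG comparison 2 to 3 in place of 3. All-gene calls moved too. In microglia against EC they were 6572 of 10572 in the main fit and 5550 of 9364 without HC library 1. In IEG-high EC they were 1179 of 8483 in the main fit and 472 of 8278 with the line at 2%. The interaction stayed at 0 calls wherever all 4 libraries were kept, and without CSD library 1 its Pmaip1 value was -1.64. The EC subtype comparison gave 4 calls with cluster classes and 1 to 2 with 1 library left out, in place of 2. With cluster classes, 1426 of all 7271 genes were called in arterial EC and 799 in venous EC. The sign turned for Bax in microglia (-0.28) and Bcl2 in choroid plexus cells (-0.35) with total UMIs, and for Bcl2a1b in ependymal cells (-4.24 without marked doublets, -4.12 to 3.36 with 1 library left out). Of 1622 values recomputed, 1463 kept direction and side of the threshold, 38 lost and 27 gained a call, and 90 changed sign without a call. Over all genes, EC calls of CSD against HC numbered 15, 5 with total UMIs, 56 with DESeq2, 62 without the filter, 167 with the replicate block, 9 with cluster classes and 34 to 512 with 1 library left out. In capillary EC they numbered 23, 8 at 1000 or more UMIs per cell, 31 with DESeq2, 130 without the filter, 37 with the block, 45 with cluster classes and 36 to 287 with 1 library left out. In microglia 0 became 1 with DESeq2, 22 without the filter and 2 with the block. The cause was not tested.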

Other observations

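In IEG-high cells 8.18% of all genes were called higher and 5.72% lower in EC, and 4.27% higher and 5.27% lower in microglia, beside which the lists read as follows. All 13 IEG genes tested in EC and all 14 in microglia were called higher, as the choice of the cells fixes for Fos, Jun, Junb and Egr1. Of the NF-kappaB list, 3 of 10 genes were called higher in EC (Icam1, Nfkbia and Nfkbiz) and 7 of 13 in microglia, where Rel, Relb, Tnfaip3 and Nfkbib joined them. Of the p53 list, 2 of 9 genes were called higher (Btg2 and Cdkn1a) and 2 lower (Trp53inp1 and Polk) in EC, and 2 of 9 higher (Btg2 and Mdm2) in microglia. Btg2 is also on the IEG list. Of the apoptosis machinery, Apaf1, the scaffold of the apoptosome, was the 1 of 16 genes called in EC, lower, and 0 of 15 were called in microglia. Of the other Bcl2 family genes 0 of 8 were called in EC and 0 of 9 in microglia.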
